A study of Mus musculus with 4 samples.

Results

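CD4 splenic T cells taken after an allogeneic transplant were compared with CD4 splenic T cells taken at the time of transplant, by RNA-seq. The members of the comparison were the genes with a mean of at least 73 over the 4 libraries of the study, which left 9937 of 21705 genes, and no gene was chosen by its CD4 ratio. The study sorted CD4 and CD8 T cells from spleens at and after transplant, and each of its 4 groups held 1 library. Each library came from the spleens of 5 mice of strain C57bl/6, pooled before the flow sort, and no genotype or treatment other than the transplant was given for any group. The later CD4 library is dated day 12 by its title and day 14 by its characteristics. The libraries at transplant are called Donor in their titles. The labels used do not say whether the later library held donor T cells only, and their source field names innate lymphoid cells where the cell type field names T cells. The text calls the libraries "at transplant" and "after transplant".

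CD4 T cells are helper cells. A resting cell keeps itself quiescent, circulates between blood, spleen and lymph nodes, and needs a signal from its antigen receptor together with costimulation before it divides. A dividing helper cell then produces cytokines, exchanges its homing receptors and takes on a program set by transcription factors and by the cytokines around it. After allogeneic transplant, donor T cells that recognise antigens of the recipient are activated in this way, and their attack on gut, liver and skin is known as graft-versus-host disease.

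A level below is the deposited normalised value of a gene in a library. A log2 ratio is the level after over the level at transplant, with 14.7 (1 ppm of the mean library total) added to each, so that it understates the change of low genes. Genes described as higher or lower differed by at least 2-fold on this scale. A ratio or fold given with an interval is taken on the plain levels, and its 95% interval, from the estimated reads behind them, covers counting error only. Both sides held 1 library, so differences were not checked against replicates and there are no p-values. In a sorted pool, fewer cells of a type and less RNA per cell cannot be told apart.

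The CD4 library at transplant held 23633544 estimated reads and the later one 16130849, so that 3 reads stood at a level of 1.99 and 2.63. The sorted marker Cd4 was at 15134 and then 17092, and all 13 measured genes of T cell identity stayed within 2-fold (median log2 ratio -0.20, summed level 100891 and then 90202). Markers of other cells moved between the libraries and are given at the end.

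Of the 9937 genes, 1204 (12.1%) were higher and 1077 (10.8%) lower after transplant. These shares are the background for the counts given for each gene list below. The filter uses the mean over the libraries, so a gene low elsewhere can pass through either CD4 library alone. For lists of low genes this favours called members, and the counts below include such genes. At 4-fold the counts were 538 (5.41%) and 237 (2.39%), and 1059 higher genes (10.7%) and 869 lower genes (8.75%) had their whole counting interval beyond 2-fold. The log2 ratios had a median of -0.07, quartiles of -0.54 and 0.43, and a range of -6.09 to 5.92, and 56.9% of the genes lay within 1.5-fold. Of all genes 4566 had a log2 ratio above 0 and 5371 below 0. The higher genes made up 2.91% of the library at transplant and 12.6% after it, while the lower genes went from 17.7% to 6.86%. Calls were not spread evenly over levels. Among the 2485 genes with the lowest mean level 19.4% were higher and 14.6% lower, and among the 2484 with the highest mean level 8.25% and 11.7%. Within 0.1 of the threshold on the log2 scale, 120 higher genes lay just inside and 132 just outside it, and 188 lower genes just inside and 231 just outside. Setting the library totals equal moved the median of all genes from -0.07 to 0.07, with 1413 genes higher and 834 lower, and the share of higher genes among the calls was then 62.9% instead of 52.8%.

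**Figure D1:**
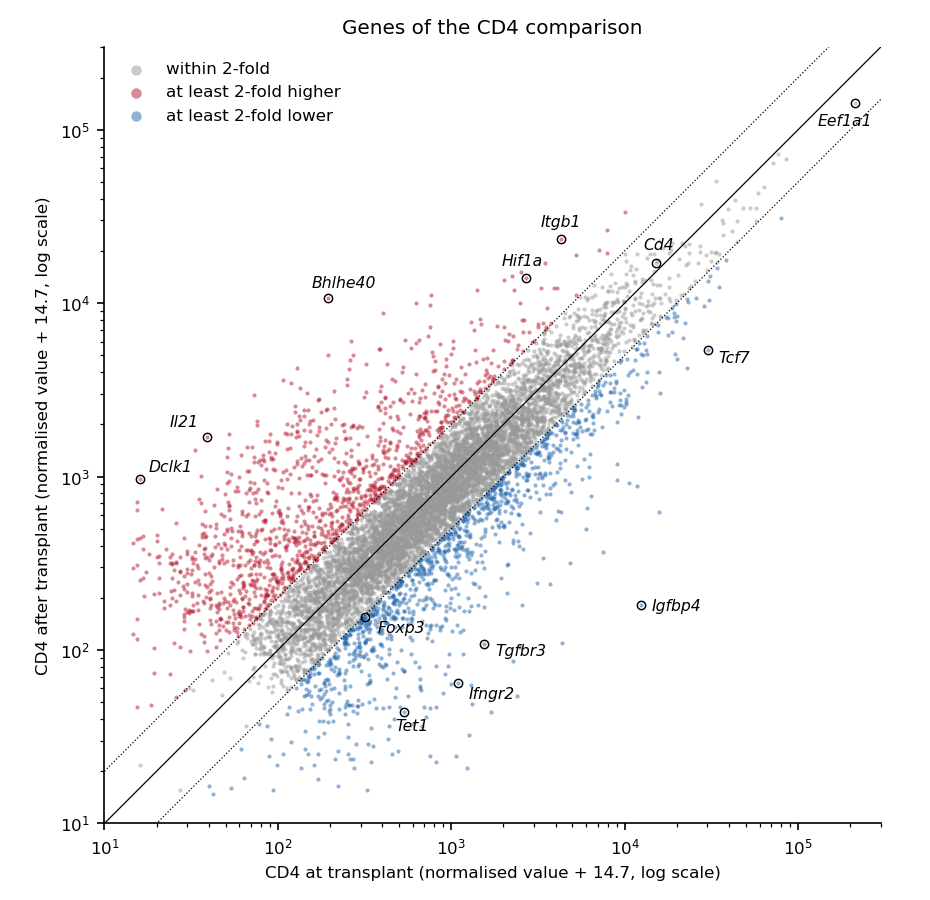
Normalised value + 14.7 of each of the 9937 genes in the CD4 library at transplant (x, log scale) and after transplant (y, log scale), with 2-fold lines dotted. The 1204 higher genes are red, the 1077 lower genes are blue, and some genes are labelled by name.

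The machinery of cell division was higher after transplant. Among 41 genes of the kinetochore and the spindle checkpoint, which attach chromosomes to the spindle and hold division until all are attached, 35 were higher and 0 lower, all 41 had a log2 ratio above 0, and the median was 3.09. Aurkb, the kinase of the chromosomal passenger complex, was at 69.7 at transplant and 1595 after it, a ratio of 22.9 (18.8 to 28.1). Birc5, the passenger subunit survivin, was at 106 and 1940.0, and Cdca8, the passenger subunit borealin, at 118 and 1692. Bub1b, a checkpoint kinase-like protein, was at 139 and 2084, and Cenpf, a protein of the outer kinetochore, at 83.7 and 1565. Levels of these genes were thus not at 0 at transplant but lay an order of magnitude lower.

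Motors, chromosome-shaping complexes and origin licensing moved with them, but less uniformly. Of 27 kinesins passing the filter 15 were higher and 2 lower (median 1.15). The mitotic motor Kif11 was at 244 and 4159 and the chromosome-bound motor Kif4 at 46.5 and 1322, whereas Kif1b and Kif21b, transport motors known from neurons, were lower, at 3175 and 729 and at 11734 and 5421, the latter a call lost with equal library totals. Of 22 condensins, cohesins and their regulators 8 were higher and 1 lower. Condensin subunits led them (Ncapg 126 and 2207), as did the separase Espl1 (71 and 1097), while the cohesin loader Nipbl was lower (5588 and 2421). Replication licensing had 14 of 24 genes higher and 0 lower (median 1.82), with Mcm5 of the replicative helicase at 918 and 4345, Orc1 of the origin complex at 17.3 and 321, and the loader Cdc6 at 60.4 and 692. Homologous recombination and the Fanconi pathway, which repair broken or stalled replication forks, had 22 of 34 genes higher and 1 lower (median 1.32). The fork mediator Clspn was at 56.4 and 1467, and the lower gene was Atm, the kinase that signals broken DNA, at 2775 and 1025.

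**Figure D2:**
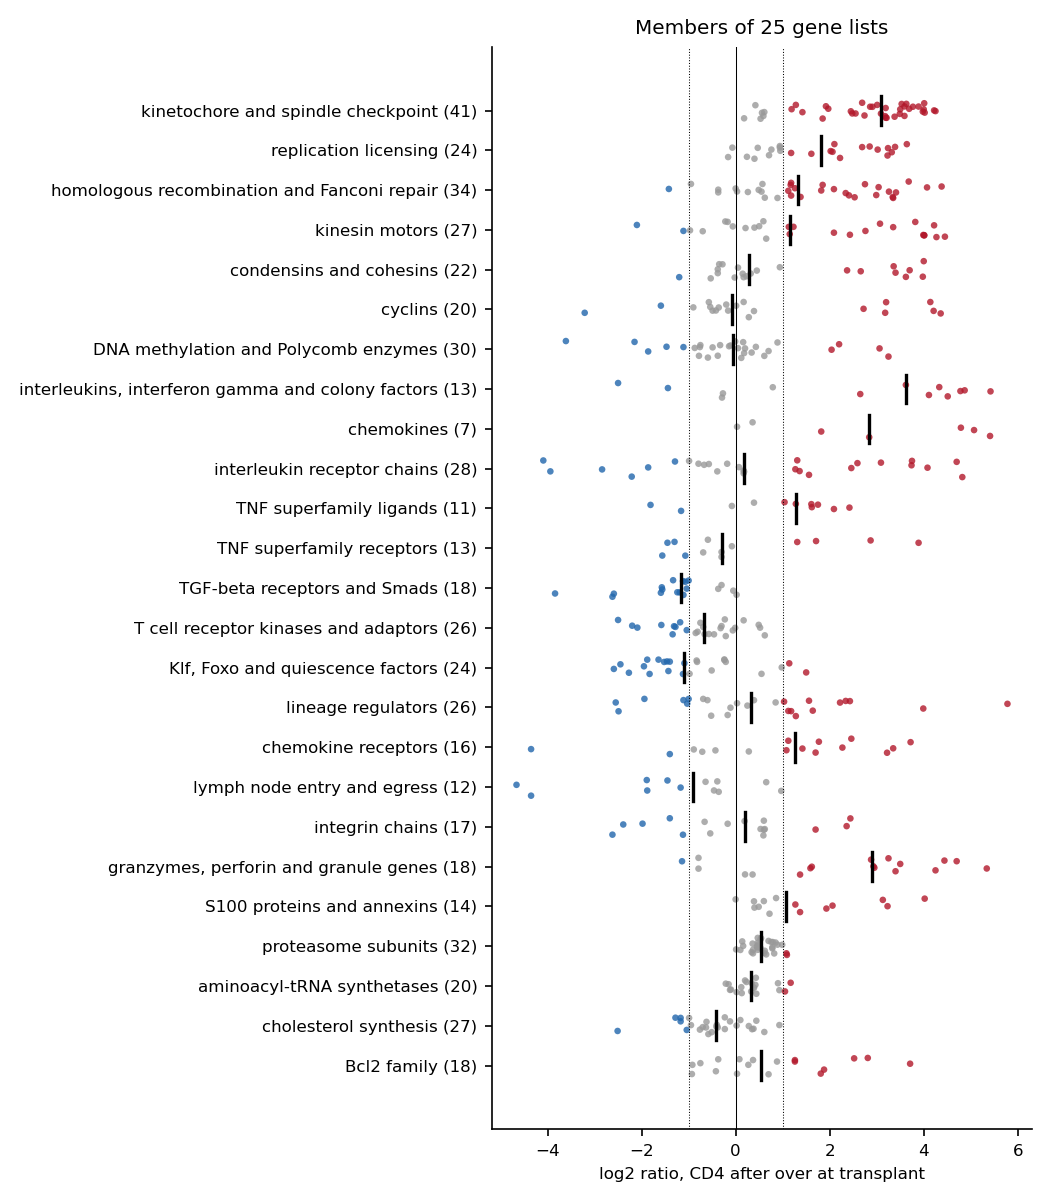
Log2 ratio of CD4 after over at transplant for each filtered member of 25 gene lists (points; red higher, blue lower, grey within 2-fold), with the list median as a black bar and the number of members in parentheses. Kinetochore genes lie wholly to the right of 0, while the TGF-beta and quiescence lists lie mostly to the left.

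Cyclins and the inhibitors of their kinases went both ways. Of 20 cyclins 6 were higher and 2 lower, and the sign of their median changed with the scaling. The higher ones were the E, A, B and F cyclins of replication and mitosis, with Ccna2 at 257 and 5029 and Ccne1 at 141 and 1013. The lower ones were D cyclins, which couple growth signals to the start of the cycle: Ccnd1 was at 421 and 32.2, 13.1-fold lower (9.31 to 18.6), and Ccnd2 at 11746 and 3889. Ccnd1 was at 49.1 and 50.3 in CD8 cells. Among 25 CDK inhibitors, Rb and E2F genes 12 were higher and 1 lower (median 0.73). The atypical repressors E2f7 (22.6 and 458) and E2f8 (81.7 and 1355) and the activators Mybl2 (53.8 and 1058) and Foxm1 (159 and 1826) of the mitotic program were among the higher ones. Inhibitors of cyclin-dependent kinases went both ways. Cdkn1a, the p21 inhibitor, was at 20.6 and 726, a ratio of 35.3 (24.6 to 52.2), and Cdkn2a, the locus of p16 and p19Arf, at 2 and 271 reads, a ratio of 179 (49.0 to 1485). Cdkn1b, the p27 inhibitor of resting T cells, was lower, at 5519 and 1907. Of 19 p53 target genes 4 were higher and 4 lower, so that Cdkn1a did not stand for that list: Sesn1, a stress-induced inhibitor of growth signalling, was at 2336 and 467.

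The promoters of 5 of these genes are printed because a CDE/CHR or an E2F element is a known feature of cell cycle promoters. The sequences are from RefSeq on GRCm38.p6, matched by gene identifier, 300 bases each around the annotated start and read along the gene's strand. In the 3 mitotic genes capitals mark the CHR core TTTGAA and the CCAAT box on either strand, and in Orc1 and Cdc6 they mark only an E2F motif (TTTCCCGC, TTTGGCGC or TTTCGCGC on either strand). They lie at chr1:189688037-189688336 (minus strand, Cenpf), chr2:118597961-118598260 (plus, Bub1b), chr4:124936868-124937167 (minus, Cdca8), chr4:108579204-108579503 (plus, Orc1) and chr11:98907901-98908200 (plus, Cdc6).
Cenpf: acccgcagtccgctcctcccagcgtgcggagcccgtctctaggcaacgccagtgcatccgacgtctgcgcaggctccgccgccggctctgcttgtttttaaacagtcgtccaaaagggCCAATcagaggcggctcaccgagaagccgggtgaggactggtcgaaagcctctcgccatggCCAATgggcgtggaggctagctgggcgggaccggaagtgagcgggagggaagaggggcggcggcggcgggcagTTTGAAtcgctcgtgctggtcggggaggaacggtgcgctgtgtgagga
Bub1b: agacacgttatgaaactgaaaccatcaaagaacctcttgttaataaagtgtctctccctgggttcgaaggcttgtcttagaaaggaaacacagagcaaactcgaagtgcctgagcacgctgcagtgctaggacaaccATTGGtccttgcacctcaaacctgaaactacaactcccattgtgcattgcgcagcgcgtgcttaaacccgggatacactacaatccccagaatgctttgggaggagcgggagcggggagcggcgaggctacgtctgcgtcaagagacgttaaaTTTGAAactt
Cdca8: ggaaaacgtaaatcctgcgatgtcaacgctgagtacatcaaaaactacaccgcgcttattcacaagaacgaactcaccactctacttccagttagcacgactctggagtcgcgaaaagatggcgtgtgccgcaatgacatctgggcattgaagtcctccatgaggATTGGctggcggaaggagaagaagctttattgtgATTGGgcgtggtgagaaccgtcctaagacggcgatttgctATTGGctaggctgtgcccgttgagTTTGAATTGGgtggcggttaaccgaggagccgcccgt
Orc1: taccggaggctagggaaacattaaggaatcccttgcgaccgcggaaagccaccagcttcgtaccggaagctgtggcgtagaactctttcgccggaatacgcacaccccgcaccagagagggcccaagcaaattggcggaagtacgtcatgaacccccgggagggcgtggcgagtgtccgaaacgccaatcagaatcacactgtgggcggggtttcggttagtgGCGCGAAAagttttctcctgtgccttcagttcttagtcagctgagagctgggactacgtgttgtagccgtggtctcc
Cdc6: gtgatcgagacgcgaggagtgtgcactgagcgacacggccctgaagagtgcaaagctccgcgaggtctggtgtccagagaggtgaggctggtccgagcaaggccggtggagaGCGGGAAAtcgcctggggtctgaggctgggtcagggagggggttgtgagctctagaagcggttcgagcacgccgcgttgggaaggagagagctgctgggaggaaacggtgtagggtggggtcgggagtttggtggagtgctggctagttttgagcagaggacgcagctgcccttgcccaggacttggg

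In the 3 mitotic promoters, chosen for holding both elements, the 1 CHR core lies downstream of a CCAAT box. In Cdca8 a CHR and a CCAAT match overlap. Of the genes of the comparison 8004 had a RefSeq promoter, and the CHR core was present in 14.3% of these. The share was 22.6% for higher genes, 13.4% for genes within 2-fold and 11.1% for lower genes, and 20.2% over all RefSeq promoters of the same length. For kinetochore genes it was 14 of 36 (38.9%), and both a CHR core and a CCAAT box were found in 30.6% of them, against 5.98% of the comparison. The E2F motif was present in 4.60% of the comparison, in 7.36% of higher genes and in 9 of 19 licensing genes (47.4%). Homologous recombination genes held a CHR core in 1 of 26 promoters and the E2F motif in 6 of 26. These are matches of letters in a fixed window, and binding was not measured.

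**Figure D3:**
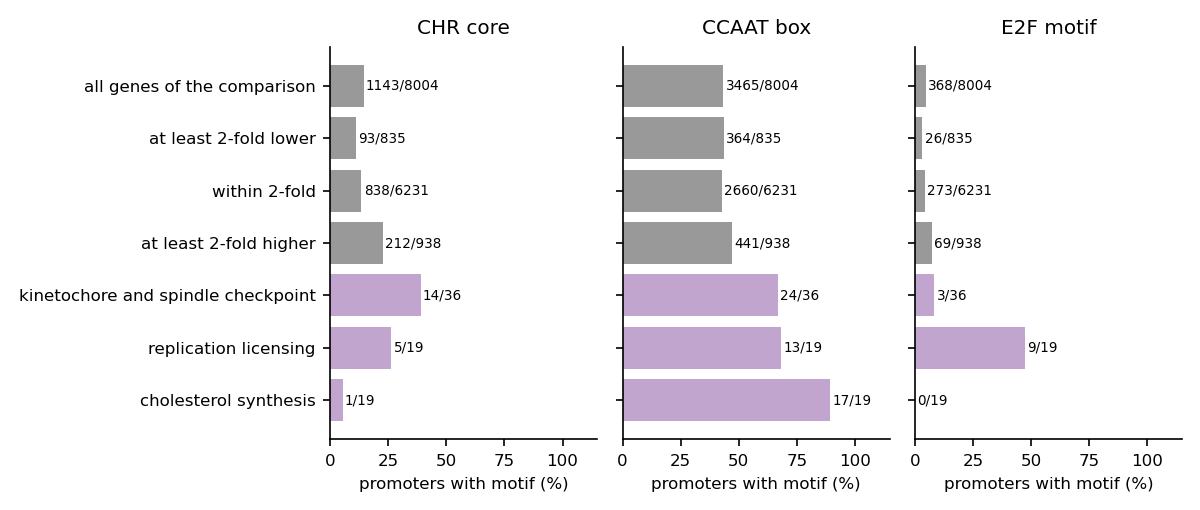
Share (%) of RefSeq promoters that hold the CHR core, the CCAAT box or the E2F motif, for genes of the comparison by their call (grey) and for 3 gene lists (purple), with promoters holding the motif over promoters available beside each bar. The CHR core is found in 212 of 938 higher genes and 93 of 835 lower genes.

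Among 30 enzymes of DNA methylation and of Polycomb repression 4 were higher and 5 lower, beside 12.1% and 10.8% over all genes. The higher ones were 4 genes. Uhrf1, which brings the maintenance methyltransferase to new DNA, was at 309 and 3076, the helicase Hells at 225 and 1984, the Polycomb methyltransferase Ezh2 at 641 and 2683, and its partner Phf19 at 83.0 and 434. The lower ones included enzymes that remove marks. Tet1, which oxidises methylcytosine, was at 519 and 28.9, 17.9-fold lower (12.7 to 26.2), Tet3 was at 3609 and 1296, and Kdm6b, a demethylase of the Polycomb mark, was at 2434 and 660.1. The list's median changed sign with the scaling, so that no direction is given for the list as a whole.

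Several secreted factors were higher after transplant. Of 38 interleukins, interferon gamma and colony-stimulating factors 13 passed the filter. Of these 8 were higher and 2 lower, beside 12.1% and 10.8% over all genes. Csf2, Il10, Lif, Ebi3 and Il21 passed only through their level in the CD4 library after transplant, so that the filter itself favoured higher members here. Csf1, the growth factor of macrophages, was at 104 and 3464, a ratio of 33.2 (28.3 to 39.2). Spp1, the matrix cytokine osteopontin, was at 5.31 and 443, and Il10, an anti-inflammatory cytokine, at 5.31 and 331, a ratio of 62.4 (31.3 to 146). Lif, a cytokine of the interleukin-6 family, was at 11.3 and 305, and Ebi3, a subunit that heterodimeric cytokines share, at 60.4 and 456. Il21, Ifng and Csf2 completed the higher 8. Some helper cytokines had few reads: Il2 was at 25 and 43 reads, Il4 at 15 and 23 reads, and Il17a at 0 in both libraries. Il13, an effector cytokine of allergic responses, was under the filter but stood at 3 reads at transplant and 163 after it, a ratio of 71.7 (24.1 to 351). The lower pair were Il16, a chemoattractant stored by resting T cells, at 8375 and 3067, and the inflammatory cytokine Il1b of myeloid cells, at 276 and 36.8.

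Ligands of the TNF superfamily had 7 of 11 filtered members higher and 2 lower (median 1.28). Tnfsf9, a higher member, passed the filter only through its level in the CD4 library after transplant. The death ligand Tnfsf10, known as TRAIL, was at 650.1 and 2813. Tnfsf11, the RANK ligand, was at 219 and 702, and Tnfsf14, the costimulatory ligand LIGHT, at 272 and 861. The lymphotoxin genes that organise lymphoid tissue were the lower ones, with Ltb at 10372 and 2958 and Lta at 340.0 and 144, a call lost under another scaling or pseudocount. Of 27 chemokines 7 passed the filter, Cxcl10 and Ccl1 only through their level in the CD4 library after transplant. Ccl3, Ccl4 and Ccl5 were higher, as were Cxcl10, a ligand of Cxcr3, at 23.2 and 258, and Ccl1, the ligand of Ccr8, at 2 and 490 reads, a ratio of 323 (89.1 to 2678).

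Receptors for cytokines went both ways. Of 28 interleukin receptor chains 12 were higher and 6 lower, with a median of 0.17. Receptors for interleukin-12 and interleukin-18, which favour interferon production, were higher: Il12rb1 was at 175 and 1599.8, Il12rb2 at 118 and 2225, Il18r1 at 1451 and 8075, and Il18rap at 237 and 3371. All 4 chains stood well above their level at transplant. Il1r2, a decoy receptor that binds interleukin-1 without signalling, was at 37.2 and 1446, a ratio of 38.9 (29.8 to 51.7). Of the interleukin-2 receptor, the signalling chain Il2rb was higher, at 2501 and 15143, and the common gamma chain Il2rg stayed within 2-fold, at 10179 and 7787. The lower receptors were chains of the receptors for interleukin-6, interleukin-7, interleukin-4, interleukin-17 and interferon gamma. Il6ra was at 4809 and 301, 16-fold lower (14.4 to 17.9), and its partner Il6st at 3989 and 544. The chains of the interferon gamma receptor moved apart: the signalling chain Ifngr2 was at 1086 and 50.0, 21.7-fold lower (16.7 to 28.8), while the binding chain Ifngr1 was higher, at 2810.1 and 6779.8. Among downstream genes, Cish and Socs2, feedback inhibitors of cytokine signalling, were higher (394 and 1487, 54.4 and 316), and so was Irf4, a factor of activated lymphocytes (249.7 and 1411). Socs2 passed the filter only through its level in the CD4 library after transplant.

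TGF-beta is a cytokine that restrains T cells and directs induced regulatory T cells. Of 26 listed genes of its pathway 18 passed the filter, 13 of these were lower, 0 higher and 5 within 2-fold, and the median was -1.15, beside a median of -0.07 and 10.8% lower over all genes. With equal library totals 9 of the 18 remained at least 2-fold lower, and Smad4, Smad5, Skil and Tgif2 fell short of it. The signalling receptors Tgfbr1 and Tgfbr2 were at 1052 and 454 and at 8896 and 3532, and the accessory receptor Tgfbr3 at 1539 and 93.8, 16.4-fold lower (13.5 to 20.1). The activin receptor Acvr1b was at 904 and 138. Of the Smads that carry the signal to the nucleus, Smad4 was at 2552 and 1169, while Smad3 was the filtered member nearest to no difference, at 1604 and 1626. Negative regulators were lower as well. Smad7, the inhibitory Smad, was at 2435 and 383, 6.36-fold lower (5.75 to 7.04), the corepressor Ski at 5211 and 1745, and the ubiquitin ligase Smurf2 at 2099.6 and 704. Tgfb1, the ligand itself, stayed within 2-fold, at 2529 and 2092. In CD8 cells the same list had 13 lower and 0 higher (median -1.32).

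Genes that meet this pathway in regulatory T cells did not share a direction. Foxp3, their defining transcription factor, was at 305 and 141, 2.15-fold lower (1.80 to 2.60), and its log2 ratio of -1.03 became -0.89 with equal library totals. Rara, a receptor of retinoic acid, which acts together with TGF-beta, was at 1100.3 and 162, 6.77-fold lower (5.82 to 7.94). Ikzf2, the factor Helios of regulatory and chronically stimulated T cells, was higher, at 531 and 1313, and so were Il10 and the inhibitory receptor Ctla4 (236 and 3618). Ahr, the receptor in the title of the study, was at 106 and 247, a ratio of 2.34 (1.92 to 2.86).

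**Figure D4:**
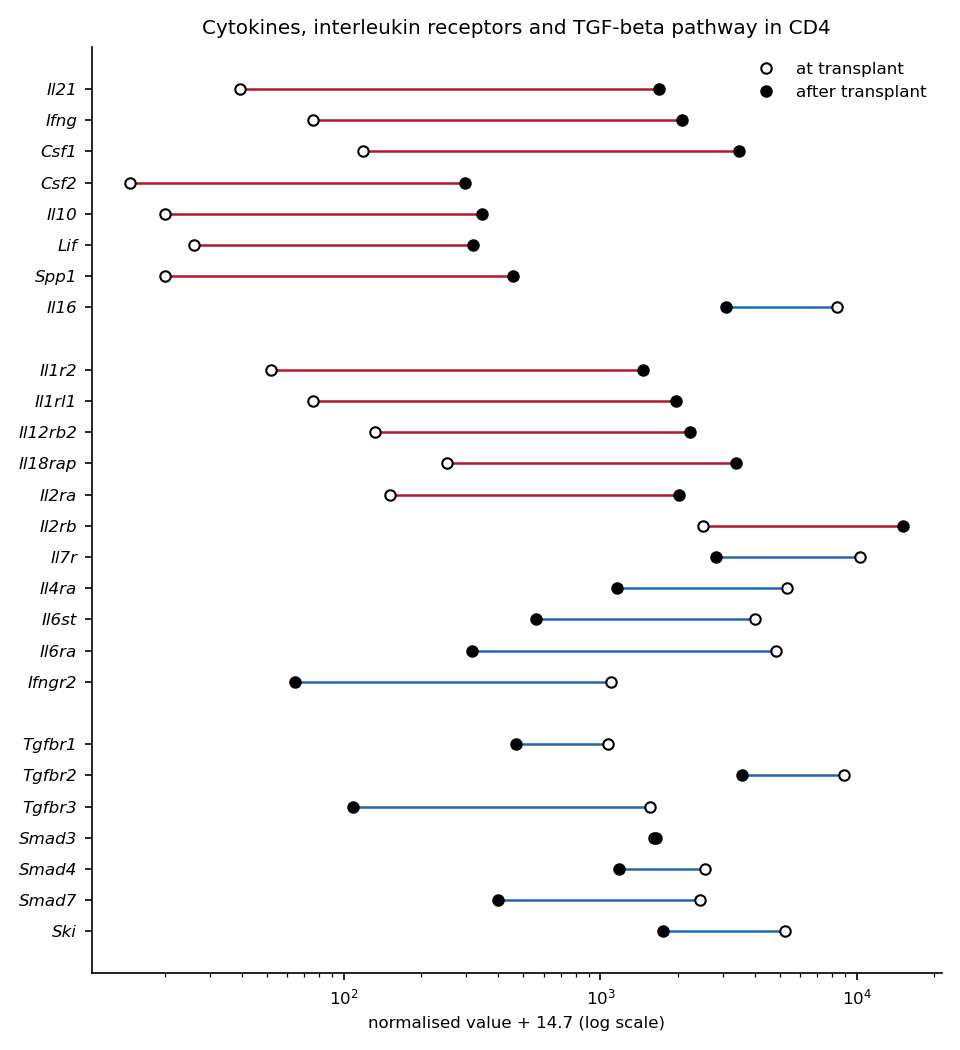
Normalised value + 14.7 (log scale) at transplant (open) and after transplant (filled) in CD4 cells for cytokines, interleukin receptor chains and TGF-beta pathway genes; red lines join genes with higher and blue lines genes with lower levels after transplant. Smad3 is the gene whose points coincide.

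Signalling parts of the antigen receptor were lower or little different after transplant. Of 26 kinases and adaptors 9 were lower and 0 higher (median -0.68), and 22 had a log2 ratio below 0. Txk and Tec, kinases of the Tec family, which relay the signal to calcium, were lower, Txk at 2398 and 413 and Tec at 424 and 80.6. The adaptors Trat1 (1201 and 271) and Grap2 (5298 and 1761) followed them. Zap70, the kinase that docks on the receptor, had the largest log2 ratio of the list, 0.62, at 4212 and 6504, and the receptor chain Cd3g was at 8959 and 8899. Among 30 brakes on receptor signalling 7 were higher and 3 lower. Rgs16 and Rgs1, which shorten G-protein signals, were higher (45.2 and 980.1, 201 and 1648), as was Rnf128, the anergy-associated ubiquitin ligase GRAIL (19.9 and 194). Rnf128 passed the filter only through its level in the CD4 library after transplant. Dgka, the diacylglycerol kinase that limits Ras signalling, was at 20059 and 4747, and Dtx1, another anergy-associated ligase, at 6347 and 762.

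Transcription factors went both ways. Of 24 Klf, Foxo and other quiescence factors 13 were lower, 2 higher and 9 within 2-fold (median -1.10). Foxo1 and Foxp1, forkhead factors that keep T cells resting, were at 6203 and 1124 and at 4899 and 799, and Klf3, a repressor of the Kruppel-like family, was at 2541 and 515. The 2 higher members were schlafens, Slfn4 (319 and 722) and Slfn9 (163 and 489). Among 26 lineage regulators 11 were higher and 6 lower. Bhlhe40 had the largest ratio of them. Runx2, a Runt-domain factor, was at 119 and 2111, a ratio of 17.8 (15.3 to 20.8), and Rora, a nuclear receptor of type 2 and type 17 helper cells, at 64.4 and 354. Satb1, a chromatin organiser of thymocytes and naive cells, was among the lower ones, at 12614 and 3286. Of 12 AP-1 and Batf genes 4 were higher, including Batf (592 and 3004) and Maf (795 and 4616), partners and drivers of helper cytokine genes, and 4 were lower, including Bach2 (2489 and 89.5, 27.8-fold lower, 22.9 to 34.2) and Jun (1545 and 189). Id2 and Id3, inhibitors of E proteins that mark effector and precursor cells, went opposite ways (1475 and 7599, 756 and 229.7). Nr4a2, Tox2 and Tox, factors of repeated receptor stimulation, were higher (35.2 and 387, 75 and 401, 1037 and 2833), while Nr4a1 was at 912 and 627. The thyroid hormone receptor Thra was at 412 and 53.2.

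Homing receptors went both ways as well. Of 16 chemokine receptors 10 were higher and 2 lower (median 1.27). Ccr8 and Ccr6, both higher, passed the filter only through their level in the CD4 library after transplant. Receptors of inflamed tissue were among the higher ones: Ccr8 at 22.6 and 366, Cxcr6 at 614 and 5854, Ccr2 at 493 and 2769.8, and Cxcr3 at 687 and 3381. The gut-homing receptor Ccr9 was at 233 and 119, within 2-fold. Of 12 genes of lymph node entry and egress 6 were lower and 0 higher (median -0.90). Ccr7, the chemokine receptor of lymph node entry, was 21.2-fold lower (19.2 to 23.5), and the egress receptor S1pr1 was at 9495 and 2559.7, 3.71-fold lower (3.56 to 3.86). Integrin chains had 3 of 17 higher and 5 lower: Itgb1, the common beta1 chain, was at 4284 and 23293, and its collagen-binding partner Itga1 at 22.4 and 176, whereas its laminin-binding partner Itga6 was at 3251 and 609 and the gut-homing chain Itgb7 at 12866 and 5915, a call lost with equal library totals. The beta1 chain was thus higher while its partners differed in direction.

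Enzymes that build selectin ligands and sialic acid chains had 7 of 27 members higher and 5 lower. Fut7, the fucosyltransferase needed for selectin ligands, was at 29.2 and 167, and Chst2, a sulfotransferase, at 187 and 2004, a ratio of 10.7 (9.45 to 12.2). St6galnac6, a sialyltransferase of glycolipids, was at 45.5 and 505. The sialyltransferases that add alpha-2,8 linkages were lower: St8sia6 was at 1838 reads and then 7 reads, 199-fold lower (96.3 to 495), and St8sia1 at 3109.5 and 228. Receptors coupled to G proteins other than chemokine receptors had 8 of 31 higher and 12 lower. Gpr55, a lysolipid receptor, was at 65.1 and 621 and the prostaglandin receptor Ptger2 at 99.6 and 419, whereas the receptor Vipr1 of vasoactive intestinal peptide (4349 and 94.7) and the cannabinoid receptor Cnr2 (522 and 61.4) were lower. Of the enzymes that turn ATP into adenosine outside the cell, the upstream enzyme Entpd1 was higher, at 214 and 936, and the downstream enzyme Nt5e lower, at 899 and 359.

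Genes of the cytotoxic granule and the serpins that protect against it had 13 of 18 filtered members higher and 1 lower (median 2.90). The serpins Serpina3f and Serpina3g were at 58.5 and 2954 and at 389 and 8770.0; they are closely similar genes, so their reads may be divided uncertainly. Serpinb9, an inhibitor of granzyme B, was at 505 and 4007. Gzmk, a granule protease, was at 29.9 and 835, and Nkg7, a granule membrane protein, at 523 and 6089.9. The lower member was Gzma, at 798 and 353, a call lost with equal library totals. Calcium-binding S100 proteins and annexins had 7 of 14 higher and 0 lower, with S100a4 at 608 and 10067 (ratio 16.6, 15.5 to 17.7) and Anxa2, which binds membranes and S100 proteins, at 723 and 6437. Galectins, which bind surface sugars, had 3 of 6 higher, with Lgals1 at 1392 and 11931 and Lgals3 at 198 and 2119.7. Class I antigen presentation had 0 of 23 higher and 1 lower, whereas interferon-inducible GTPases had 5 of 19 higher and 0 lower, led by Gbp3 (292 and 1926) and Mx1 (129 and 718).

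Of 33 genes of nucleotide, serine and folate metabolism 7 were higher, 0 lower and 26 within 2-fold (median 0.60). The higher ones included enzymes that supply DNA precursors, with Rrm2 of ribonucleotide reductase at 308 and 4449.7 and the thymidine kinase Tk1 at 103 and 1452. The citrate cycle and pentose phosphate genes had 2 of 38 higher and 3 lower. Pdk1, which closes the entry of pyruvate into the cycle, was at 4772 and 893, and Got2, a mitochondrial aminotransferase, at 1051 and 2795. Cholesterol synthesis had 5 of 27 genes lower and 0 higher (median -0.41) in CD4 cells, with Srebf2, the factor that activates the pathway, at 5105 and 2483. Of these 5, Srebf2, Mvk and Tm7sf2 fell short of 2-fold under another scaling or pseudocount, and 2 had their counting interval wholly beyond 2-fold. In CD8 cells 5 genes of the list were higher and 2 lower (median 0.20); the difference was not tested. The sterol element TCACCCCAC was found in 0 of 19 promoters of this list and in 0.612% of the comparison. Only this exact string was searched. It is too rare for 19 promoters to show whether these genes lack sterol elements. Of 19 genes of the hypoxia list 3 were higher, 3 lower and 13 within 2-fold, beside 12.1% higher and 10.8% lower over all genes. The higher ones were the oxygen-regulated factors Hif1a (2694 and 13862) and Epas1 (483 and 1585) and the oxygen sensor Egln3 (60.4 and 214), and among the lower ones P4ha1, a collagen hydroxylase, was at 2249 and 417. Egln3 passed the filter only through its level in the CD4 library after transplant. The glucose transporter Slc2a3 (1169 and 2837) and the lactate transporter Slc16a3 (129.5 and 515) were higher. Slc16a5, of the same gene family as Slc16a3 but not known here as a lactate transporter, was lower (1575 and 11 reads). Asns, the asparagine synthetase induced by amino acid shortage, was at 18.6 and 355, whereas Ddit3, a factor of the same stress response, was at 308 and 99.8.

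Redox genes had 9 of 31 members higher and 1 lower. The reductase Srxn1 was at 15.3 and 341, the metallothionein Mt1 at 19.9 and 281 and the thioredoxin Txn1 at 951 and 3827, while the lower gene was Nfe2l2, the factor that activates many of them, at 1556 and 465. All 32 proteasome subunits had a log2 ratio above 0, from 0.01 to 1.09, yet only Psmd1 (1456 and 3118) and Psma5 (653 and 1393) reached 2-fold. Autophagy and lysosome genes had 11 members above 0 and 20 below (median -0.17), beside 4566 above and 5371 below over all genes. Synthetases that charge tRNA had 2 of 20 higher, Vars (2394 and 5405) and Gars (1548 and 3224), near the 12.1% over all genes. Only Vars had its counting interval wholly beyond 2-fold. Nucleolar genes of ribosome assembly had 0 of 31 beyond 2-fold, whereas genes of cytosolic ribosomal proteins, 84 in the table, made up 8.75% of the library's reads at transplant (exact binomial interval 8.74 to 8.76) and 5.34% after it (5.33 to 5.35). Of the 80 that passed the filter 25 were lower and 1 higher (median -0.88).

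Survival genes of the Bcl2 family had 7 of 18 members higher and 0 lower, on both sides of the balance. The protective Bcl2a1d was at 126 and 1830.3 and Bcl2l1 at 335 and 1269, and the death-promoting Pmaip1 was at 183 and 1371 and Bak1 at 1055 and 2543. Bcl2a1 genes are near-identical copies whose reads may be divided uncertainly. Bcl2 and Mcl1, the guardians of resting cells, stayed within 2-fold at 4506 and 2669 and at 12797 and 6719. Dusp14 and Dusp4, phosphatases of MAP kinases, were higher (9.96 and 297, 45.2 and 362). Of 14 genes of glucocorticoid response and the clock 2 were higher and 4 lower, beside 12.1% and 10.8% over all genes. The glucocorticoid targets went opposite ways, with Fkbp5 at 1353 and 5318 and Tsc22d3 at 5674 and 1808. Among 33 ion channels and pumps 6 were higher and 9 lower. The potassium channel Kcnk5 was at 68.4 and 947 and the calcium pump Atp2b4 at 278 and 1944, and the sodium pump subunit Atp1b1 was at 2373 and 39.4, 60.2-fold lower (44.9 to 82.6).

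Some genes were nearly absent from 1 CD4 library and present in the other. Counting genes with at most 3 reads, rounded to whole reads, in 1 library and at least 10 ppm in the other, 13 (0.131% of the comparison) were near the floor at transplant and 2 (0.0201%) after it. Among the 13 were Dclk1, Gcg, Bace2, Miat, Ccl1, Ermn, Gldc, Trp73, Wisp1, Csf2, Cdkn2a and Apol11b. Of those named, all but Ermn, Gldc and Cdkn2a passed the filter only through their level in the CD4 library after transplant. Gldc, the glycine-cleaving decarboxylase, had 0 reads and then 453, which makes it at least 199-fold higher when 3 reads are taken as the floor. Trp73, a relative of p53, had 3 and 417 reads, and the secreted Wnt-induced protein Wisp1 had 1 and 336. Miat, a long noncoding RNA, had 3 and 502 reads. The 2 genes that were near the floor after transplant were Ace, the angiotensin-converting peptidase, with 469 reads and then 1, a 355-fold lower level (63.5 to 14061), and Cyp2d22, a cytochrome P450, with 312 and 2 reads, 118-fold lower (32.4 to 980.0). Both passed the filter only through their level in the CD4 library at transplant.

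Other members of the 15 largest ratios each way included Igfbp7, a secreted binding protein (6.71 and 635), Penk, the precursor of enkephalins (21.2 and 993), and Gp49a, an immunoglobulin-like receptor gene with a near-identical copy (92.6 and 3607). On the lower side stood Pdlim4, a cytoskeletal adaptor (798 and 7.89), the heat shock chaperone Hspa1a (742 and 9.92), the scaffold Sh3pxd2a (1294 and 34.2), the membrane protein Lypd6b (442 and 10.5) and Ggt5, a glutathione-cleaving enzyme (703 and 26.3). By share of the library, which depends on transcript length as well as on level, the largest gains included the cytoskeletal genes Actg1 (2148 and 3567 ppm) and Vim (332 and 1336) and the chromatin protein Hmgb2 (level 2228 and 14382). Gapdh gained too (504 and 1873 ppm), and the gene model Gm12070 had the same ratio of 3.35, so the reads of the pair may be shared. The largest losses included the translation factor Eef1a1 (13507 and 10070.2 ppm), Tcf7 (level 30033 and 5331), and the ribosomal genes Rps24, Rps3, Rpl5 and Rpl12.

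Markers of other cells moved between the CD4 libraries, and their part in the results above was not tested. Among filtered genes of macrophages and monocytes, 8 of 13 were lower and 1 higher, with a summed level over the 18 listed genes of 10037 and 6849.6. The higher gene was Ccr2, given above as a homing receptor, whose 493 and 2769.8 are part of these sums. The macrophage receptor Csf1r was at 1002 and 114 and the complement gene C1qa at 404 and 67.5. Of 11 filtered dendritic cell genes 7 were lower and 2 higher (summed level 14151 and 6368), including the class II gene H2-Ab1, at 2197 and 659. Of 7 filtered NK cell genes 6 were lower and 0 higher (summed level 4785 and 1071), and Ncr1, an NK cell receptor, was at 172 and 0. The NK list holds Txk, given above as a T cell kinase, whose 2398 and 413 are a large part of both sums. Neutrophil genes were present in both libraries, with a summed level of 20453 and 34613, and of 13 filtered genes 4 were higher, 2 lower and 7 within 2-fold. The early granule gene Mpo was at 144 and 612, while the receptors Csf3r and Cxcr2 were at 549.8 and 127 and at 279 and 96.4. The list of innate-like and gamma delta T cells had 6 of 7 filtered genes higher and 1 lower (summed level 3459 and 16985); it holds Il18r1 and Maf, whose levels of 1451 and 8075 and of 795 and 4616 are also given above, and Zbtb16, the factor of innate-like T cells, at 82.3 and 0. Red cell and platelet genes had a summed level of 1092 and 4567, and the haemoglobins made up 0.00303% and 0.0192% of the reads. The 14 B cell markers summed to 327 and 406 with a median level of 11 and 2.19, and the gain in the sum lay in Cd22 (133 and 353), while Cd79b was at 50.5 and 21.9. Of 19 epithelial, liver and pancreas genes 13 were at 0 after transplant, among them Ins1, Ins2, Sst and Alb, while Gcg stood at 696. Without the genes of all these lists 1184 genes were higher and 1052 lower, beside 1204 and 1077. That setting drops only the listed markers and keeps 9873 genes, so it cannot show what other cells added to the rest.

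**Figure D5:**
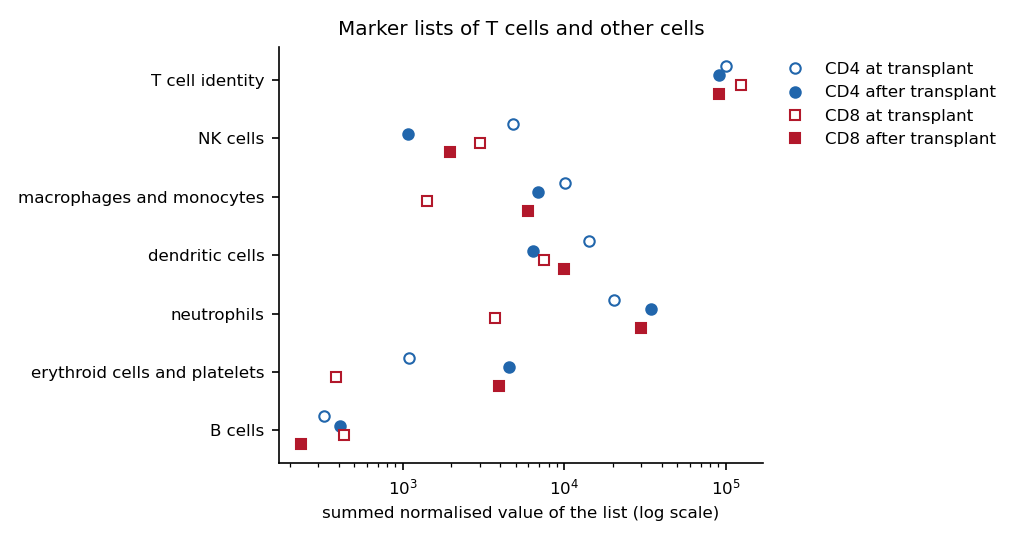
Summed normalised value (log scale) of marker lists of T cells and of other cells in each of the 4 libraries (CD4 circles, CD8 squares; open at transplant, filled after). Macrophage, dendritic and NK cell sums are lower after transplant in CD4 cells, and the T cell identity sum is 100891 and 90202. The NK cell sums include the T cell kinase Txk, at 2398 and 413 in CD4 and at 2501 and 749 in CD8 cells.

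The CD8 libraries give the same contrast in other T cells at the same times, again with 1 library a side. There 1489 genes (15%) were higher and 1095 (11%) lower. Of the 9937 genes, 1823 were beyond 2-fold in the same direction in CD4 and CD8 cells, beside 1204 higher and 1077 lower in CD4. Another 35 genes were beyond 2-fold in opposite directions, 32 of them lower in CD4 and higher in CD8, and 14 of these 32 stood in a list of other cells. Over all genes such lists are a small part, since 9873 of the 9937 remain without them. Whether any of these differences between the cell types exceed the variation between mice was not tested.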

How the data were processed

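Sorted splenic T cells gave 4 RNA-seq libraries, 1 a group; per the labels, RNA was extracted with an RNeasy kit and libraries were prepared with a TruSeq mRNA kit. The deposited values have the unit signal: normalised estimated reads per gene, on a scale where genes above 0 had an upper quartile between 998 and 999.6 in every library. RSEM 1.1.13, SAMtools 1.2 and build mm9 are named in the submitters' processing notes; how reads were aligned, annotated and scaled is not given in the sources used here. For each library the value of 1 read was recovered from the spacing of low values (0.664 and 0.877 in CD4 at and after transplant), and 86.4 to 87.6% of the values above 0 lay within 0.1 of a whole read, so they are estimated reads and no count model was used. In the CD8 libraries depth was 17972481 and 9873851 estimated reads.

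Groups came from the labels. The comparison was the log2 ratio of deposited values, with a pseudocount of 14.7 and a filter on the mean of 73. With 1 library a side there was no test; intervals are exact conditional binomial (Clopper-Pearson) intervals on rounded estimated reads. Of 71 gene lists with 1683 members, 1664 were in the table (15 by another name) and 1278 passed the filter. The members and lists were chosen with earlier results of these data known. Named genes were the 15 largest ratios each way above a mean of 147, up to 3 members of each list each way and the one nearest 0, the 10 largest changes each way in library share, genes with at most 3 reads in 1 library, and Ahr, Cd4, Cd8a, Cd8b1 and Foxp3; other genes are named as members of lists or as background to them, and Tgfb1, Il13, Ncr1 and Ccr9 were picked after their values were seen. Some genes that this rule selects are not reported here. Promoters were RefSeq sequences of GRCm38.p6 matched by gene identifier, since the files use another build. Alternatives were 4 scalings, 2 pseudocounts, 3 filters, calls by counting interval and the genes without markers of other cells. Python 3.11.15 with numpy 2.4.6, pandas 2.3.3, scipy 1.17.1 and matplotlib 3.10.9 was used, and the ratio and interval code was tested on simulated data.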

Additional observations from a re-analysis of the deposited data

Results flagged for a closer look

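A total of 8 genes named by rule had CD4 and CD8 ratios on opposite sides of 2-fold, and the difference was not tested for any of them, since each group held 1 library. Cd244, an NK and memory T cell receptor, had a log2 ratio of -2.22 in CD4 and 3.36 in CD8, the integrin chain Itgax -1.98 and 2.43, and the NK receptor Klrb1c -2.12 and 1.18. Gzma, a granule protease, had -1.14 and 3.44 and the surface protein Ly6c1 -1.17 and 4.32. Vcam1, an adhesion molecule of stroma and macrophages, had -2.84 and 1.66. Foxp3 had -1.03 and 1.32, on 459 and 161 reads in CD4. The gene 5830411N06Rik went the other way, with 1.87 and -1.73.

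The marker lists of NK cells (median log2 ratio -2.12 in CD4 and 1.18 in CD8), macrophages and monocytes (-2.14 and 1.85) and dendritic cells (-1.64 and 1.17) also had medians of opposite sign, and this too was not tested. The macrophage list had a summed level of 10037 and 6849.6 in CD4 and of 1411 and 5924 in CD8 at and after transplant, so that the 2 cell types differed more at transplant than after it. These sums include the homing receptor Ccr2, at 493 and 2769.8 in CD4 and at 348 and 2031 in CD8.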

How the results depend on the processing

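Across 4 scalings and 2 pseudocounts, 487 of 546 named or listed genes beyond 2-fold stayed beyond it in all 6 settings, and 0 changed sign. The count of higher genes ran from 1043 (pseudocount of 4 ppm) to 1413 (equal library totals), and that of lower genes from 834 (equal library totals) to 1145 (pseudocount of 0.25 ppm). A stricter minimum mean of 20 ppm gave 727 higher and 718 lower among 7489 genes; fewer genes pass it. With no filter they were 1677 and 1440 among 15505. The stroma and endothelium list, 1 gene at -1.04 with the filter, had a median of 0.05 without it, over more genes. List medians beyond 2-fold kept their sign under every scaling, and 6 medians near 0 changed sign with the scaling (Nr4a, Tox and Nfat factors; E and Id proteins; SOCS and JAK genes; cyclins; DNA methylation and Polycomb enzymes; nucleolar genes). No paired analysis was possible because each group held 1 library, and no library could be left out. Differences between mice, sorts and library preparations cannot be told apart from the time of sampling, and for genes of few reads depth limits the ratio, as the intervals show.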
